A study of Mus musculus with 8 samples.

Results

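The enzymes that make, use and interconvert glutamine, glutamate and asparagine were followed through 9 genes, taken by symbol from a list: Glul, Glud1, Asns, Got1, Got2, Gpt2, Oat, Aldh18a1 and Pycr1. All 9 were found among the 38924 lines of the deposited expression matrix, each on 1 line. The matrix covers 3 libraries of inner cell mass (ICM) from mouse blastocysts at day 3.5, 3 of ICM from diapaused blastocysts and 2 of epiblast taken at day 6.5, after implantation. Each library was made from a pool of about 50 embryos of C57BL/6 females. In diapause the blastocyst pauses its development and stays unimplanted. Here it was brought about at day 3.5 by tamoxifen (intraperitoneal) together with Depo Provera (0.5 mg, subcutaneous), and the embryos were collected 5 days later. Both kinds of blastocyst came from superovulated females, and their trophectoderm was lysed with antibody and complement. How the epiblast was isolated is not described in the labels. RNA from all pools was amplified before sequencing.

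Glutamine carries nitrogen and carbon between tissues and inside the cell. Glutamine synthetase joins ammonia to glutamate, and glutamate gives its amino group to other acids or enters the tricarboxylic acid cycle as 2-oxoglutarate. Asparagine is made from aspartate with the amide nitrogen of glutamine, and proline and ornithine share the intermediate glutamate semialdehyde. In mouse embryonic stem cells, glutamine-derived 2-oxoglutarate is known to serve chromatin-modifying enzymes as well as energy metabolism.

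Levels are adjusted TPM, the authors' name for the deposited values. TPM is an abundance per transcript length, but how it was adjusted is not stated and the columns do not share a total, so levels set between genes rest on the name of the unit. Fold changes are differences of log2(value + 1), given ± SE, and understate changes of genes with low values. They were tested with limma, with p-values adjusted over all 17698 genes that passed a filter of 1 or more in at least 2 libraries. All 9 genes passed it, Pycr1 only narrowly, with 1.59 in ICM replicate 2 and 1.37 in epiblast replicate 1 as its values above 1. The read depth behind the values is unknown. Column sums lay between 720674 (ICM replicate 2) and 1179026 (diapaused ICM replicate 1).

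The labels were set against marker genes. Of 15 epiblast and pluripotency markers, 12 had a mean of at least 1 in ICM, all but Fgf5, Pou3f1 and T, and in epiblast the 3 below 1 were Klf2, Klf4 and Tfcp2l1. In diapaused ICM 11 had such a mean, all but Fgf5, Otx2, Pou3f1 and T. Their summed level was 1551 to 1753 in ICM, 440 to 463 in diapaused ICM and 429 to 736 in epiblast. Most of the ICM sum was Dppa3, with means of 1133 in ICM and 49.9 in diapaused ICM. The summed level of 13 primitive endoderm markers was 600.0 to 748 in ICM, 1841 to 2180 in diapaused ICM and 69.4 to 72.6 in epiblast. In both blastocyst groups most of it was Sparc, with means of 474 in ICM, 1392 in diapaused ICM and 27.5 in epiblast. The summed level of 11 trophectoderm markers was 41.2 to 64.5, 54.2 to 194 and 55.9 to 57.5 in the same order, with 194 in diapaused ICM replicate 3. Of these, Cdx2, Gata2 and Krt7 had means under 1 in ICM and in diapaused ICM, while Krt18 was at 19.3 ± 7.95 and 51.8 ± 59.7 and Gata3 at 1.46 ± 0.949 and 8.41 ± 3.28 (SD, n = 3 each). The summed level of 11 visceral endoderm markers was 25.6 to 36.4, 562 to 579 and 307 to 422, most of it Rhox5 (means of 26.3, 558 and 319), and Afp, Apoa4, Amn and Cer1 were under 1 in all 3 groups. The summed level of 9 blood and decidua markers was 60.8 to 81.3, 57.1 to 143 and 4.43 to 7.18. In ICM most of it was Pecam1, which went from a mean of 62.9 in ICM to 13.2 in diapaused ICM. Ptprc was under 1 in all 3 groups, and the macrophage markers Laptm5 and Cd68 went from 0.966 in ICM to 31.8 in diapaused ICM and from 6.29 to 45.2. Mitochondrially encoded genes held 8.45% to 11.7% of the summed values in ICM, 5.68% to 7.91% in diapaused ICM, and 2.01% and 2.03% in epiblast.

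The promoters of the 9 genes were available from RefSeq (GRCm38.p6) as windows of 300 bases, from 250 before to 50 after the start of transcription. They are shown because several of these genes are described as targets of ATF4, the transcription factor of the amino acid response, and because Asns, whose transcripts differed most across the groups, is the textbook example. The core of the ATF4 element was searched as TGATGNAA on both strands. It was found in 1304 of all 32851 windows (3.97%), or for 1219 of 27025 genes (4.51%). Of the 9 genes 3 held it, Asns, Got1 and Pycr1. The palindrome TGACGTCA, another ATF motif, was in 1.79% of all windows, or for 2.03% of genes, and in 0 of these 9. The whole Asns window (chr6:7693160-7693459, minus strand) is printed 5′ to 3′ with the match in capitals, beginning 23 bases before the start.
Asns: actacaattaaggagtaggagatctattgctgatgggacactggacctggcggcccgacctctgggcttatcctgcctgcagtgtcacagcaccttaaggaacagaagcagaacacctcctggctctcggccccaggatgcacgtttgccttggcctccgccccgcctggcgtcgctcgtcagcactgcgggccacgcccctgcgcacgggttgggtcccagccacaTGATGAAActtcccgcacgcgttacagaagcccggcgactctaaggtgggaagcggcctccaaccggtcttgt

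The other 2 matches are shown as 60 bases around the capitals. In Got1 (chr19:43524674-43524733, minus strand) the match lies on the opposite strand and begins 102 bases before the start, and in Pycr1 (chr11:120643818-120643877, minus strand) it begins 103 bases before it.
Got1: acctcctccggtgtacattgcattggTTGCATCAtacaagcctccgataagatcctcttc
Pycr1: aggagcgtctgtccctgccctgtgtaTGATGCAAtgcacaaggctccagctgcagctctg
A match describes the letters only. Of the 3 genes that hold one, Asns rose in diapaused ICM, while Got1 and Pycr1 did not pass the test in any comparison. Pycr1 lay too low for a missing call to say much, and the interval of Got1 in diapause reached down to 0.547-fold. Oat and Gpt2, which also rose in diapaused ICM, held neither motif in these windows. Whether the motif bears on the levels was not tested.

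Glud1 had the highest value of the 9 genes in all 8 libraries, and Pycr1 was the lowest in all but ICM replicate 2, where Oat was lower. In ICM the means ran from Glud1 (211 ± 23.1, SD, n = 3) through Glul (106 ± 26.2), Got1 (49.9 ± 5.28), Asns (39.5 ± 8.34), Got2 (11.1 ± 2.13), Aldh18a1 (4.19 ± 2.57), Gpt2 (1.99 ± 0.231) and Oat (1.52 ± 0.546) to Pycr1 (0.997 ± 0.578). Of neighbours in this order, Got1 and Asns, Gpt2 and Oat, and Oat and Pycr1 had ICM libraries that overlapped. In diapaused ICM Asns moved up beside Glul, at 161 ± 18.2 against 151 ± 2.54 (SD, n = 3), with libraries that overlapped. In epiblast Asns was below Got2, at 11.9 ± 0.0787 against 25.9 ± 3.54 (SD, n = 2). Among all genes tested, Asns lay between the 85.4 and 87.6 percentiles in ICM, 94.5 and 95.3 in diapaused ICM, and 74.1 and 74.8 in epiblast. Oat lay between the 19.8 and 34.5 percentiles in ICM and between 64.5 and 77.1 in diapaused ICM.

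**Figure D1:**
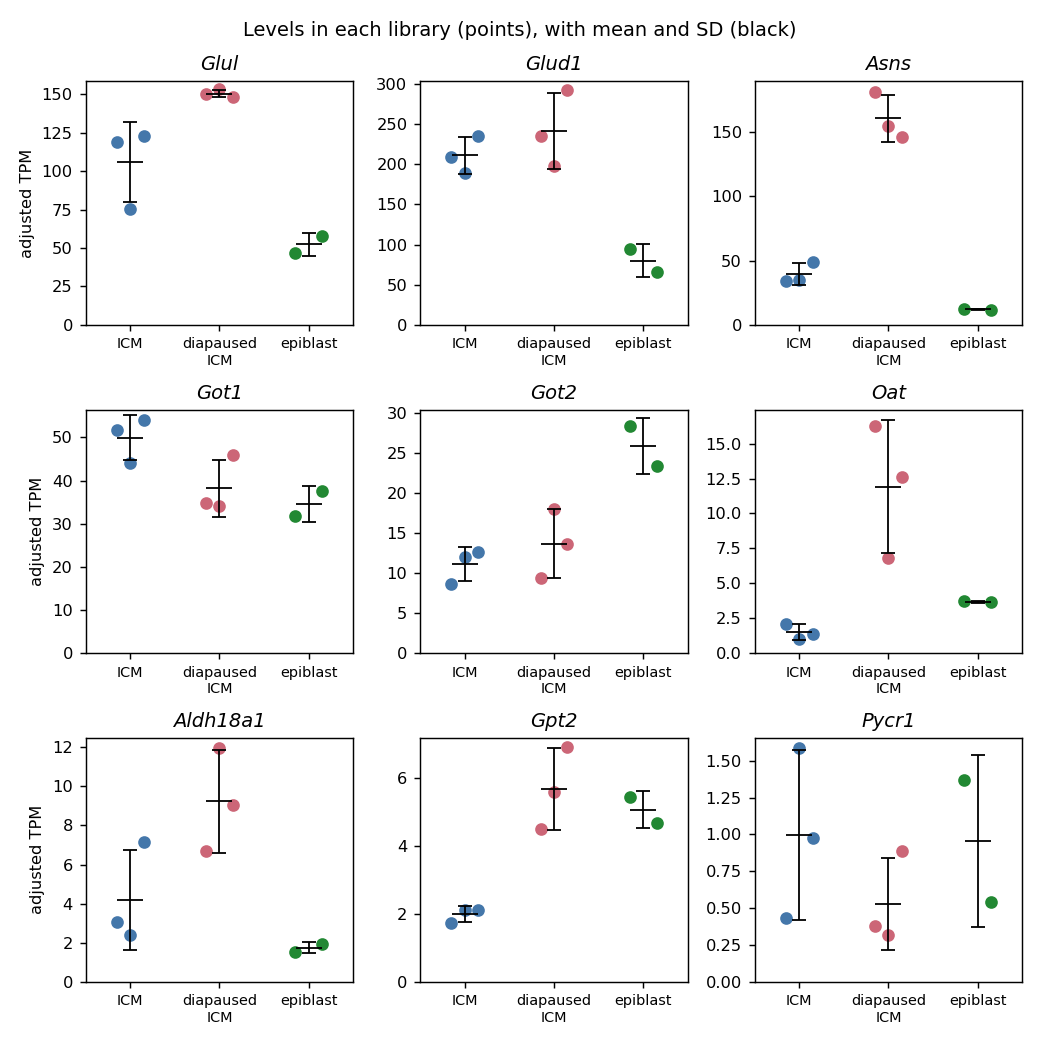
Adjusted TPM (vertical axis, linear and starting at 0, its own scale in each panel) of the 9 enzyme genes in 3 ICM, 3 diapaused ICM and 2 epiblast libraries, as points with the group mean and SD in black. The diapaused libraries of Asns, Oat and Gpt2 lie above all ICM libraries, and those of Glud1 overlap with ICM.

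Diapaused ICM was set against ICM to ask how the arrested embryo differs in transcripts of nutrient use. Asns, Oat and Gpt2 rose in diapause, by 2.01, 2.31 and 1.15 on the log2 scale, and 0 of the 9 genes fell by limma's test (0 also at an unadjusted p under 0.05, where 4 were higher). These were an enzyme that uses glutamine to make asparagine and a pair that move amino groups to or from glutamate. Genes called were 3 of 9, where 13.3% of all genes tested were called, 7.52% higher and 5.81% lower. With the test set against a minimum fold of 1.5, Asns and Oat passed. The libraries of 4 of the 9, Glul, Asns, Oat and Gpt2, lay apart and higher, as did 16.4% of all genes, with 14.4% apart and lower. The median of the 9 fold changes was 0.54, beside 0.00 for all genes tested. Diapaused embryos were also collected 5 days later, and the labels give tamoxifen and Depo Provera for them alone, so arrest, age and treatment cannot be told apart. In pooled tissue, fewer cells of a type and less RNA per cell cannot be told apart either. Markers of other cell types moved with this comparison. Of 13 primitive endoderm markers 9 were higher and 1 lower (Gata6). Of the tested blood and decidua markers, 2 of 4 were higher, Laptm5 (3.93, adjusted p = 0.00020) and Cd68 (2.53, adjusted p = 0.0078), and Pecam1 was lower. Of 6 tested visceral endoderm markers 2 were higher, Rhox5 (4.37, adjusted p = 1.3e-05) and Cubn (1.32, adjusted p = 0.017), and 1 was lower (Hnf4a), and of 9 tested trophectoderm markers 1 was higher, Gata3 (1.95, adjusted p = 0.0094). Of 15 epiblast and pluripotency markers 0 were higher and 2 lower, Dppa3 (-4.48, adjusted p = 2.4e-05) and Dnmt3b (-1.34, adjusted p = 0.035). The part of all these markers in the results on the 9 genes was not tested. Asns, Oat and Gpt2 were still called without diapaused ICM replicate 3, the library of highest trophectoderm sum. Diapaused ICM replicates 1 and 2 still had Gata3 at 9.20 and 4.81, so leaving out replicate 3 is no test of that part.

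Glul encodes glutamine synthetase, which makes glutamine from glutamate and ammonia. Its values were 119, 75.7 and 123 in ICM, 150.1, 153 and 148 in diapaused ICM, and 46.8 and 57.8 in epiblast. The 3 groups did not overlap, and ICM replicate 2, the library of lowest total, was the lowest of the ICM. The difference between diapaused ICM and ICM was 0.54 ± 0.24 (adjusted p = 0.19; 95% interval -0.01 to 1.08), which did not pass the test. Groups that did not overlap, in either direction, were found for 30.7% of all genes tested. After rescaling each library to the same total the difference was 0.25.

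Glul fell in epiblast against diapaused ICM, by 1.51 ± 0.27 on the log2 scale (adjusted p = 0.0034), and against ICM the value was -0.98 ± 0.27 (adjusted p = 0.026). The call against ICM was lost without ICM replicate 1 (adjusted p = 0.077), ICM replicate 3 (0.072), epiblast replicate 1 (0.15) or epiblast replicate 2 (0.065), in the fit of these groups alone (0.052) and with the replicate number as a block (0.070).

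Glud1 encodes glutamate dehydrogenase, the mitochondrial enzyme that interconverts glutamate with 2-oxoglutarate and ammonia. It was at 208, 189 and 235 in ICM, 235, 198 and 292 in diapaused ICM, and 94.6 and 65.5 in epiblast. The blastocyst groups overlapped and epiblast lay below both. The difference between diapaused ICM and ICM was 0.18 ± 0.24 (adjusted p = 0.69; 95% interval -0.36 to 0.72), and it changed sign, to -0.10, after rescaling to the same total. In epiblast Glud1 fell by 1.41 ± 0.27 on the log2 scale against ICM (adjusted p = 0.0054) and by 1.59 ± 0.27 against diapaused ICM (adjusted p = 0.0026).

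Asns encodes asparagine synthetase, which transfers the amide nitrogen of glutamine to aspartate. Its values were 34.3, 35.1 and 49.1 in ICM, 181, 155 and 147 in diapaused ICM, and 12.0 and 11.9 in epiblast. The lowest diapaused library was well above the highest ICM library, and the lowest ICM library was above both epiblast libraries. Asns rose by 2.01 ± 0.22 in diapaused ICM against ICM (adjusted p = 0.00068), with a 95% interval of 2.86-fold to 5.70-fold on the scale of value + 1. In epiblast it stood at -1.63 ± 0.25 against ICM (adjusted p = 0.0018) and at -3.64 ± 0.25 against diapaused ICM (adjusted p = 3.5e-05), rank 67 by p among all genes tested in that comparison. All 3 calls held in each of 20 alternative analyses, where the fold change against ICM in diapause ranged from 1.73 to 2.18.

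The asparaginase gene Asrgl1, which acts in the opposite direction, also rose in diapause, from 1.44 ± 0.354 to 4.87 ± 1.69 (SD, n = 3 each; 1.24 ± 0.25, adjusted p = 0.014). This call was lost without ICM replicate 1 (adjusted p = 0.056) and with no filter (0.062). Log2 ratios, here and below, are of value + 1. That of Asns to Asrgl1 was 3.95 to 4.14 in ICM, 4.32 to 5.23 in diapaused ICM and 1.73 to 2.12 in epiblast. On this scale it was higher in every diapaused library and lower in both epiblast libraries than in any ICM library. Asrgl1 was at 1.16 to 1.84 in ICM, so the added 1 lowers the ICM ratios most. Without it diapaused ICM replicate 2 (Asns 155, Asrgl1 6.82) would lie below every ICM library. The ratios are descriptions and were not tested.

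**Figure D2:**
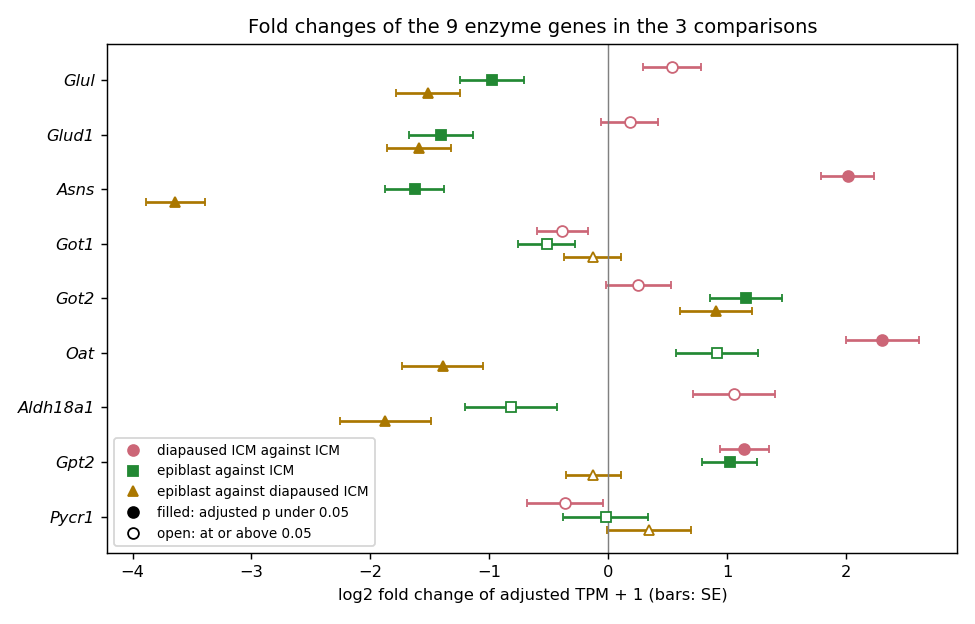
Log2 fold change (horizontal axis, bars are SE) of the 9 enzyme genes in each of the 3 comparisons, with filled symbols for an adjusted p under 0.05. Asns has the widest spread, from 2.01 in diapaused ICM against ICM to -3.64 in epiblast against diapaused ICM, and Pycr1 has 0 filled symbols.

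The aspartate aminotransferases exchange amino groups between glutamate and aspartate, Got1 in the cytosol and Got2 in mitochondria, and together carry the malate-aspartate shuttle. Got1 was at 51.8, 44.0 and 54.0 in ICM, 34.7, 34.1 and 45.8 in diapaused ICM, and 31.7 and 37.6 in epiblast. Its diapaused libraries overlapped with both other groups, and 0 of its 3 comparisons passed the test (-0.38 ± 0.22 for diapaused ICM against ICM, adjusted p = 0.29). The 95% interval of that difference, -0.87 to 0.10, still allows a fall to 0.547 of the ICM level. Got2 was at 8.68, 12.0 and 12.7 in ICM, 9.43, 18.0 and 13.7 in diapaused ICM, and 28.4 and 23.4 in epiblast. Both epiblast libraries lay above every blastocyst library.

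Got2 rose in epiblast against ICM (1.16 ± 0.30, adjusted p = 0.020) and against diapaused ICM (0.91 ± 0.30, adjusted p = 0.045). The second call was lost in 13 of 20 alternatives, among them the replicate block (adjusted p = 0.056), the fit of these groups alone (0.071) and leaving out any library except diapaused ICM replicate 2 (0.053 to 0.22). The first was lost without ICM replicate 1 (0.064), epiblast replicate 1 (0.14) or epiblast replicate 2 (0.069) and after rescaling to the same total (0.11) or with no filter (0.056). Within libraries the log2 ratio of Got1 to Got2 was 1.79 to 2.45 in ICM, 0.88 to 1.78 in diapaused ICM and 0.15 to 0.66 in epiblast. The value of Got1 was thus above that of Got2 in all 8 libraries, least in epiblast. On the scale of value + 1 the groups did not overlap, but ICM and diapaused ICM came close, at 1.793 and 1.777. Without the added 1, ICM and diapaused ICM overlap. The other enzyme of the shuttle in mitochondria, malate dehydrogenase, is encoded by Mdh2, and the log2 ratio of Got2 to Mdh2 was -4.48 to -3.10 in ICM, -3.03 to -1.72 in diapaused ICM and -2.49 and -1.92 in epiblast.

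Gpt2 encodes the mitochondrial alanine aminotransferase, which makes alanine and 2-oxoglutarate from pyruvate and glutamate. It was at 1.72, 2.13 and 2.12 in ICM, 4.50, 5.60 and 6.92 in diapaused ICM, and 5.45 and 4.69 in epiblast. ICM was the low group, and the other two overlapped. Gpt2 rose by 1.15 ± 0.21 in diapaused ICM (adjusted p = 0.0074) and by 1.02 ± 0.23 in epiblast (adjusted p = 0.011) against the same ICM libraries. Both calls were lost after rescaling to the same total (adjusted p = 0.052 and 0.091), and the second also without epiblast replicate 1 (0.092). Epiblast and diapaused ICM differed by -0.12 ± 0.23 (adjusted p = 0.70; 95% interval -0.64 to 0.40). The cytosolic counterpart Gpt did not pass the filter, with means of 0.0459, 0.0798 and 0.000446 in ICM, diapaused ICM and epiblast.

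Oat encodes ornithine aminotransferase, which links ornithine and glutamate through glutamate semialdehyde. It was at 2.12, 1.05 and 1.38 in ICM, 16.2, 6.82 and 12.6 in diapaused ICM, and 3.71 and 3.64 in epiblast. The 3 groups did not overlap. It rose by 2.31 ± 0.31 in diapaused ICM against ICM (adjusted p = 0.0017), which held in each of 20 alternatives. Epiblast was at -1.39 ± 0.34 against diapaused ICM (adjusted p = 0.014), a call lost without epiblast replicate 1 (0.087) or replicate 2 (0.085) and with no filter (0.059). Against ICM the epiblast difference was 0.92 ± 0.34 (adjusted p = 0.073), and it passed without diapaused ICM replicate 2 (0.031), whose absence changed only the shared estimate of spread, and in the fit of these groups alone (0.044).

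Aldh18a1 encodes pyrroline-5-carboxylate synthase, which takes glutamate to the semialdehyde and on toward proline or ornithine. It was at 3.05, 2.39 and 7.14 in ICM, 6.72, 12.0 and 9.05 in diapaused ICM, and 1.54 and 1.94 in epiblast. ICM replicate 3 reached into the diapaused range, and epiblast was the lowest. The difference between diapaused ICM and ICM was 1.06 ± 0.34 (adjusted p = 0.079; 95% interval 0.28 to 1.83). Without ICM replicate 3 it was 1.44 and passed (adjusted p = 0.019). Epiblast was at -1.87 ± 0.38 against diapaused ICM (adjusted p = 0.0065), a call lost without epiblast replicate 1 (0.065), and at -0.82 ± 0.38 against ICM (adjusted p = 0.14). Aldh18a1 had the widest spread between replicates of the 9, with a residual SD of 0.489 on the log2 scale, beside 0.190 for Gpt2 and a median of 0.356 over all genes tested.

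Pycr1 encodes a mitochondrial reductase for the last step of proline synthesis. It was at 0.430, 1.59 and 0.976 in ICM, 0.376, 0.315 and 0.886 in diapaused ICM, and 1.37 and 0.543 in epiblast. The groups overlapped, and 0 of 3 comparisons passed (adjusted p = 0.52, 0.97 and 0.48). At this level, close to the pseudocount of 1, a missing call says little. The log2 ratio of Aldh18a1 to Oat, the synthase beside the aminotransferase at the same intermediate, was 0.38 to 1.78 in ICM, -1.16 to 0.73 in diapaused ICM and -0.89 and -0.66 in epiblast, so that Oat was the higher transcript in 2 of 3 diapaused and both epiblast libraries.

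**Figure D3:**
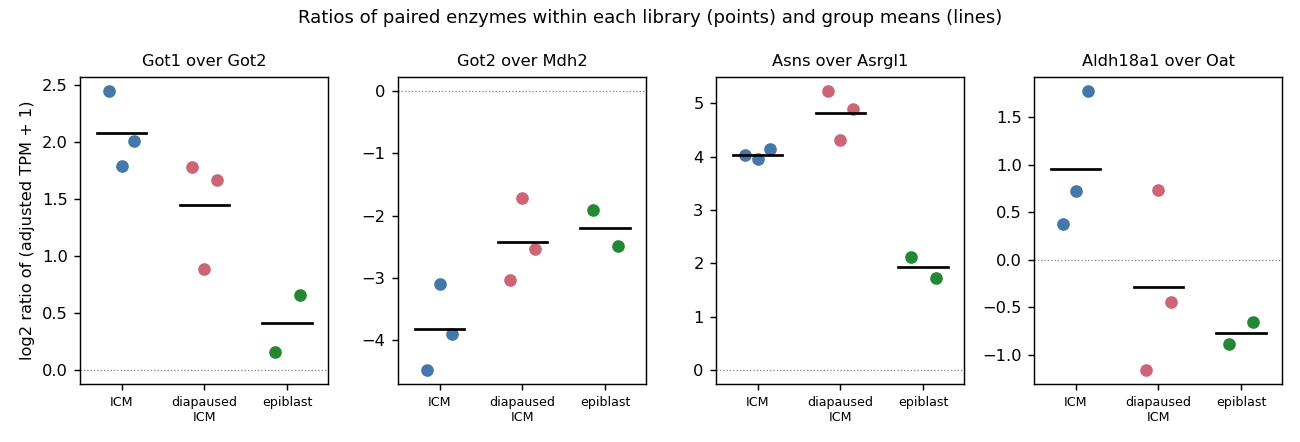
Log2 ratio of value + 1 between paired enzymes (vertical axis, its own scale in each panel) within each of the 8 libraries, as points with group means as lines. Asns over Asrgl1 is highest in diapaused ICM, at 4.32 to 5.23, and Got1 over Got2 falls from 1.79 to 2.45 in ICM to 0.15 and 0.66 in epiblast.

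The comparison of epiblast with ICM addresses how the transcripts differ after implantation. Glul, Glud1 and Asns were lower in epiblast, and Got2 and Gpt2 were higher. That made 5 of 9 genes called, beside 30.1% of all genes tested (16.7% higher and 13.3% lower), and the median was -0.52, beside 0.14 for all genes. The count dropped to 2 without epiblast replicate 1 and to 3 without epiblast replicate 2, without ICM replicate 1 or after rescaling to the same total, and to Asns alone with a minimum fold of 1.5. The groups lay apart for 8 of the 9, all but Pycr1, 3 higher (Got2, Oat and Gpt2) and 5 lower, beside 59.0% of all genes, 33.9% higher and 25.0% lower. Against diapaused ICM, epiblast was lower in Glul, Glud1, Asns, Oat and Aldh18a1 and higher in Got2. These 6 of 9 calls stand beside 34.5% of all genes tested (18.6% higher and 16.0% lower), and the count dropped to 3 without epiblast replicate 1 and to 4 with a minimum fold of 1.5. These 6 were also the genes whose groups lay apart, beside 61.4% of all genes, 34.1% higher and 27.3% lower. The median was -1.39, beside 0.11. Both epiblast comparisons use the same 2 epiblast libraries, and each shares a blastocyst group with the comparison in diapause, so their values are set side by side and are not independent of each other. Together the 9 genes held 0.0437% to 0.0515% of the summed values in ICM, 0.0526% to 0.0731% in diapaused ICM, and 0.0199% and 0.0203% in epiblast. Primitive endoderm markers were lower in epiblast too, 9 of 13 against ICM and 11 of 13 against diapaused ICM, and 8 of the 13 had an epiblast mean under 1. Of 6 tested visceral endoderm markers 4 were higher in epiblast than in ICM and 1 lower, with Ttr at 0.0147 in ICM and 23.0 in epiblast and Apoa1 at 0.373 and 13.5. The nucleolar gene Npm1 alone held 8.41% and 9.71% of the summed values in epiblast, beside 0.978% to 3.21% in the blastocyst libraries. The part of these and of the lower mitochondrial share in the values of the 9 genes was not tested.

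The wider pathway was read from lists of genes, with older symbols used where the file has them. Of 19 tested genes of other enzymes that interconvert these amino acids, out of 29 in the file, 1 was higher and 2 were lower in diapaused ICM, with a median of -0.13. That is near the 13.3% called among all genes, and with no filter or without ICM replicate 1 the count was 0. The called genes were Asrgl1, Psat1, a serine-synthesis aminotransferase that uses glutamate, which went from 115 ± 18.7 to 48.8 ± 14.9 (SD, n = 3 each; -1.24 ± 0.26, adjusted p = 0.015), and Bcat1, a branched-chain aminotransferase (-0.78 ± 0.21, adjusted p = 0.044). The call of Psat1 was lost without ICM replicate 1 (adjusted p = 0.057) and with no filter (0.050). That of Bcat1 was lost without each of the 8 libraries in turn (0.059 to 0.13). In epiblast against diapaused ICM 2 of the 19 were higher and 3 lower, and Psat1 was at 155 ± 8.46 (SD, n = 2; 1.69 ± 0.29, adjusted p = 0.0028).

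Of 8 tested enzymes that spend the amide nitrogen of glutamine on nucleotides and amino sugars, diapaused ICM had 1 called higher and 1 called lower against ICM, with a median of 0.37. Among all genes 7.52% were higher and 5.81% lower, so the counts say little of the list. Gfpt1, which starts hexosamine synthesis, was at 19.9, 13.4 and 16.1 in ICM, 32.1, 29.3 and 32.4 in diapaused ICM, and 5.67 and 4.33 in epiblast. The 3 groups were apart, in the same order as for Glul and Asns. Its rise in diapause (0.90 ± 0.22, adjusted p = 0.027) was lost without ICM replicate 2 or 3, without any diapaused library (0.055 to 0.072) and after rescaling to the same total (0.12), while epiblast was lower than ICM (-1.53 ± 0.24, adjusted p = 0.0022) and diapaused ICM (-2.43 ± 0.24, adjusted p = 0.00021). Pfas, of purine synthesis, took the other course, from 14.7 ± 2.55 in ICM to 5.81 ± 1.21 in diapaused ICM (SD, n = 3 each; -1.20 ± 0.23, adjusted p = 0.0092) and 22.1 ± 3.08 in epiblast (SD, n = 2; 1.77 ± 0.25 against diapaused ICM, adjusted p = 0.0011).

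Among 7 tested genes of mitochondrial carriers and shuttle enzymes, 1 was higher (Slc25a11) and 3 were lower (Slc25a13, Mdh2 and Slc25a10) in diapaused ICM. Among all genes 7.52% were higher and 5.81% lower. With no filter, and in the fit of these groups alone, the count was 0. Mdh2 went from 176 ± 57.3 to 76.7 ± 13.1 (SD, n = 3 each; -1.14 ± 0.30, adjusted p = 0.035). These 4 calls were each lost in 9 to 16 alternatives, and that of Mdh2 without any single library other than ICM replicate 2 (0.061 to 0.12). Of 8 tRNA synthetase genes for these amino acids 0 were called in diapaused ICM against ICM by limma's test, and 0 had an unadjusted p under 0.05. Their median was 0.04, and -0.21 after rescaling to the same total. In epiblast Qars, for glutamine, was lower than in diapaused ICM (-1.07 ± 0.28, adjusted p = 0.017), a call lost without epiblast replicate 1 (0.12) and after rescaling to the same total (0.051).

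Of 14 tested genes of ATF4 and the amino acid response, 7 were higher and 0 lower in diapaused ICM, with a median of 1.00 beside 0.00 for all genes, of which 7.52% were higher and 5.81% lower. The count was 4 with no filter on low values and 3 with a minimum fold of 1.5. At an unadjusted p under 0.05 by limma's test, 8 of the 14 were higher and 1 was lower, Gcn1l1 (-0.67 ± 0.27). Asns is a known target of this response and was not counted in the list. Genes of the other lists were not counted here either, among them Psat1, which was lower in diapaused ICM. The tRNA synthetase genes, of which 0 were called, were also kept apart. Atf4 itself was at 44.1, 17.4 and 57.3 in ICM, 75.1, 55.4 and 80.0 in diapaused ICM, and 166 and 77.0 in epiblast, and the diapause comparison did not pass (adjusted p = 0.21). Ddit3, which encodes the stress factor CHOP, was at 8.91, 8.01 and 15.6 in ICM, 83.5, 47.7 and 51.3 in diapaused ICM, and 2.13 and 2.10 in epiblast. It rose in diapause (2.39 ± 0.30, adjusted p = 0.0014) and was lower in epiblast than in ICM (-1.87 ± 0.34, adjusted p = 0.0044), the same order of groups as Asns. Atf5, a related factor, rose from 7.79 ± 3.90 to 93.4 ± 30.7 (SD, n = 3 each; 3.49 ± 0.41, adjusted p = 0.00094) and was at 9.16 ± 1.28 in epiblast (SD, n = 2). Atf3 and Sesn2 were the other 2 named by the rule, and Nupr1, Cebpg and Ppp1r15a, picked after their values were seen, made up the 7. In epiblast against ICM 3 of the 14 were higher and 2 lower, Atf4 among the higher (adjusted p = 0.037).

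**Figure D4:**
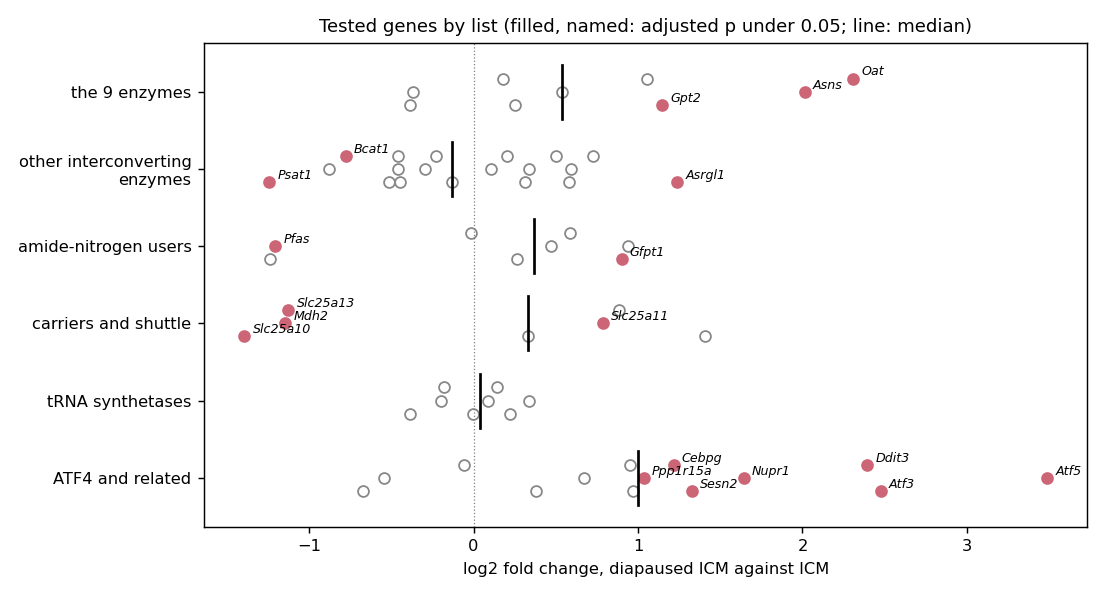
Log2 fold change in diapaused ICM against ICM (horizontal axis) of every tested gene by list, with filled and named points for an adjusted p under 0.05 and a line at each list's median. The ATF4 list has 7 named points, all to the right of 0, and the carriers and shuttle list has 3 to the left and 1 to the right.

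The genes most like each enzyme were taken as those with the highest Pearson correlation of log2(value + 1) over the 8 libraries, among tested genes with a mean of at least 10. These values describe likeness over 3 groups whose libraries cluster, so they mostly read the order of the group means. Asns was most like Ddit3 (r = 0.996), followed by Dnmt3l (0.993) and Atp6v0b (0.992). Glul was most like Bsg (0.997), Clk2 (0.994) and Bri3 (0.994), and Glud1 like Setd3 (0.990). For Gpt2 the closest were Tmeff1 (0.978), the glutamine transporter gene Slc38a1 (0.975) and Tspan5 (0.974). Slc38a1 had means of 0.349 in ICM, 25.3 in diapaused ICM and 19.3 in epiblast, so that with Gpt2 it shared low ICM values and like values in the other groups. Oat was most like the line named TUG1_3 (0.988) and like Spry4 (0.963), Aldh18a1 like Ifnar2 (0.981), Got1 like Rab11a (0.989), Got2 like Ola1 (0.966) and Pycr1 like Prelid1 (0.931).

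Among the 9 themselves, Glul, Asns and Aldh18a1 had the most similar profiles, with correlations of 0.924 (Glul and Asns), 0.910 (Asns and Aldh18a1) and 0.905 (Glul and Aldh18a1) over the 8 libraries. All 3 had their highest mean in diapaused ICM and their lowest in epiblast. Got2 ran against Glud1 (-0.773) and Glul (-0.688), since it was highest where they were lowest. Oat and Gpt2 (0.780) shared their lowest values in ICM. These are descriptions of 8 libraries in 3 groups and carry no test.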

How the data were processed

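Gene expression was taken from a matrix of 8 libraries (3 ICM, 3 diapaused ICM, 2 post-implantation epiblast), described in the labels as biological triplicates and duplicates of pooled embryos. Adjusted TPM is what the authors call the deposited signal, per the file headers. Columns differ in total, which TPM would not, so the values were used as a signal; the tests had been set for TPM and were kept. Per the submitters' processing notes, Bowtie 0.12.5, DESeq (no version) and mm9 were used, in roles not spelled out. For annotation, filters and strand the sources used here say nothing, so reads shared with overlapping genes or pseudogenes cannot be checked. Depth is unknown.

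Lines reaching 1 in 2 or more libraries (17698 of 38924) were put on the scale log2(value + 1). limma 3.58.1 in R 4.3.3 fitted all 8 libraries with a mean per group (residual degrees of freedom 5, trended prior), and each pair of groups was tested two-sided with Benjamini-Hochberg adjustment over all genes tested, threshold 0.05. Intervals are 95% from the moderated fit. The fit was tested on simulated data. Symbols were matched by name, taking the line of highest mean where repeated. Up to 20 alternatives were run per result. Promoter windows came from RefSeq (GRCm38.p6), matched by symbol for 9 of 9 genes, and are not on the build of the notes.

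The members and lists were chosen with earlier results of these data known. Named are the 9 genes, the called members of each list (at most the 4 of smallest adjusted p per comparison), the partners in ratios, and the 3 genes most like each member; some of these are not reported here.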

Additional observations from a re-analysis of the deposited data

How the results depend on the processing

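In diapaused ICM against ICM the number of the 9 genes called stayed at 2 to 4 in all 20 alternatives, and Asns and Oat were called in each. Of 537 values of single members under an alternative, 489 kept direction and side of the threshold, 37 lost their call, 3 gained one and 8 changed sign, all 8 of results not called before. Those were Glud1 (-0.10) and Got2 (-0.0094) in diapaused ICM against ICM after rescaling to the same total, Pycr1 in epiblast against ICM with array weights (0.14), with the replicate block (0.066), without ICM replicate 2 (0.19) and without epiblast replicate 2 (0.29; -0.33 to 0.29 without 1 library), and, in epiblast against diapaused ICM without diapaused ICM replicate 3, Got1 (0.0031; from -0.25 without 1 library) and Gpt2 (0.0076; from -0.26). In epiblast against ICM the count of members was 5, and 3 after rescaling to the same total and 1 with a minimum fold of 1.5 (2 to 6 without 1 library). In epiblast against diapaused ICM it was 6, and 3 to 6 without 1 library. Over all genes, 2360 were called in diapaused ICM against ICM, 1278 with no filter, 640 with a minimum fold of 1.5 and 1402 to 2141 without 1 library. In epiblast against ICM 5324 were called, 1845 with that minimum fold and 2008 to 5205 without 1 library; against diapaused ICM these were 6113, 2243 and 2698 to 6315.

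Rescaling to the same total moved the median of all genes by -0.203 in diapaused ICM and -0.205 in epiblast against ICM, and turned the split of calls from 1331 higher and 1029 lower to 864 and 1478, and from 2963 and 2361 to 1544 and 2741. Rescaling without the 200 most abundant genes gave 1983 and 2722 for epiblast against ICM and 2292 and 3117, in place of 3283 and 2830, against diapaused ICM, with shifts of -0.14 and -0.11. The causes were not tested. Whether the replicate numbers pair the libraries is not settled by these values. Between ICM and diapaused ICM, deviations of same-numbered libraries correlated at 0.02, 0.10 and 0.13, and those of differently numbered libraries at -0.15 to 0.03. Not every library correlated best with its own number. With the replicate block 3 members were called in diapaused ICM against ICM, 4 in epiblast against ICM and 5 against diapaused ICM. With an epiblast library left out the other was assumed to vary like the other groups.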
